A study of Homo sapiens with 12 samples.

Results

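The genes that write, keep and remove DNA methylation were followed through 3 stages of human blood development in culture and in 2 genotypes of the transcription factor GATA2. The 9 genes were chosen for their known part in the pathway and taken by symbol. They are *DNMT1*, *UHRF1*, *DNMT3A*, *DNMT3B*, *DNMT3L*, *TET1*, *TET2*, *TET3* and *TDG*, out of 56266 Ensembl genes in each table. Each had 1 row. Of the 9, 8 were among the 21543 genes that passed the filter on low values (2 or more libraries at 1 TPM or above), and *DNMT3L* was not.

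Methylation of cytosine in CG pairs (CpG) is set up by the de novo methyltransferases DNMT3A and DNMT3B, with DNMT3L as a partner that has no catalytic activity of its own. DNMT1 copies the marks onto the new strand at replication, and UHRF1 brings DNMT1 to hemimethylated CpG. The TET enzymes oxidise methylcytosine, and the glycosylase TDG cuts out the more oxidised forms so that base excision repair can put back an unmodified cytosine. In blood cells, *DNMT3A* and *TET2* are known as genes that are recurrently mutated in myeloid disease, and *DNMT3B*, *DNMT3L* and *TET1* are known for high levels in pluripotent cells.

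All cells came from H1, an established line of human embryonic stem cells (hESCs). RNA-Seq was read from 10 libraries, 2 for each of 5 groups. The groups were undifferentiated hESCs labelled GATA2-/-, hemogenic endothelial cells (HEs) of wild type (WT) H1 and of H1-GATA2-/-, and hematopoietic progenitor cells (HPCs) of both genotypes. For these 2 stages the hESCs were grown on OP9, a mouse stromal line, and sorted on day 8 for HEs (CD34+CD31+CD43-) and on day 9 for HPCs (CD34+CD43+). The GATA2-/- line was 1 clone of H1, in which a neomycin cassette under the PGK promoter disrupted exon 3 of both *GATA2* alleles with the help of TALENs, so that an effect of the clone and an effect of the genotype cannot be told apart. WT hESC libraries were not analysed here. Every comparison with hESCs therefore lay within the GATA2-/- line.

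The deposited unit was TPM, a transcript level corrected for transcript length and scaled to the same total in every library, so levels of different genes may be set side by side. The sums ran from 998299 to 999106, and the genes at 1 TPM or above numbered 16004 to 17335. TPM keeps no read depth, so no counting interval is given. Precision was judged from the spread between the 2 libraries of a group, pooled over the 5 groups. *GATA2* itself was at 2.05 and 5.54 TPM in hESCs, 106.8 and 78.03 in WT HEs, 110.93 and 94.06 in GATA2-/- HEs, 290.08 and 204.17 in WT HPCs and 112.47 and 83.82 in GATA2-/- HPCs. The disrupted alleles may still give an aberrant mRNA, and the gene-level value therefore does not check the genotype labels. In the 7 pluripotency markers, *POU5F1* was at 2855.42 and 3331.78 in hESCs and 0.56 to 3.02 in the 8 sorted libraries, whereas *LIN28A* (97.11 to 244.28) and *DPPA4* (33.09 to 64.36) were still present in the latter, and the 7 markers summed to 4604.59 and 5190.3 against 144.12 to 300.16. The 8 endothelial markers summed to 66.89 and 85.15 in hESCs, 2745.64 to 3235.46 in HEs and 547.64 to 796.09 in HPCs, and the 8 blood markers to 11.88 and 18.32, 53.17 to 251.72 and 3115.22 to 6463.23. Of the blood markers, *SPN* (CD43) was at 97.98 to 107.93 in HPCs and 1.76 to 8.81 in HEs, whereas *PTPRC* (CD45) was listed at 0 in the 4 HE libraries and reached only 0.68 to 3.09 in HPCs. The 6 mesenchymal markers summed to 43.55 and 77.42 in hESCs, 250.26 to 484.36 in HEs and 74.3 to 180.66 in HPCs, with *COL3A1* and *LUM* listed at 0 in hESCs. The second replicate of every HE and HPC group carried an extra number in its table header (called the mark here), the first did not, and its meaning was not given in the sources used here. The 2 hESC libraries also had unlike headers, with the number 38 in the first and 58 in the second, again with no meaning given there.

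Upstream sequence is shown for the 4 genes whose level changed between hESCs and HPCs. RefSeq (GRCh38.p14) gave windows of 300 bases, from 250 before a transcript start to 50 after it, for 8 of the 9 genes, 19 windows in all. *DNMT3L* had no entry. The 250 bases before the first listed start are printed 5′ to 3′ on the plus strand with each CG in capitals, for *DNMT3B* at chr20:32779602-32779851, *TET1* at chr10:68560087-68560336, *TET2* at chr4:105145625-105145874 and *TET3* at chr2:73984660-73984909.
DNMT3B: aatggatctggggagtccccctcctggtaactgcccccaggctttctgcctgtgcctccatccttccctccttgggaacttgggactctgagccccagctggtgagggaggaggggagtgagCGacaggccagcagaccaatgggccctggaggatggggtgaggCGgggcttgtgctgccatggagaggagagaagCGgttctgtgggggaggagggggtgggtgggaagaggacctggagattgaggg
TET1: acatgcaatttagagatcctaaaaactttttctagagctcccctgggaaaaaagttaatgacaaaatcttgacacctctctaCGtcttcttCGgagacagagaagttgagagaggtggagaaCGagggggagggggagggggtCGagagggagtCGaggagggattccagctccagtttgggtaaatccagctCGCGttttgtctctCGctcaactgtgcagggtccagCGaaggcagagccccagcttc
TET2: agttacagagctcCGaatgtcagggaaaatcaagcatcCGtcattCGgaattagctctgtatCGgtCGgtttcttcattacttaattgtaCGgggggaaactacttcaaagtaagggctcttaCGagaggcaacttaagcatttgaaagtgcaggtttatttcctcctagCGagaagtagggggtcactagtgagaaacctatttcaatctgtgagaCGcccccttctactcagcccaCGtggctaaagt
TET3: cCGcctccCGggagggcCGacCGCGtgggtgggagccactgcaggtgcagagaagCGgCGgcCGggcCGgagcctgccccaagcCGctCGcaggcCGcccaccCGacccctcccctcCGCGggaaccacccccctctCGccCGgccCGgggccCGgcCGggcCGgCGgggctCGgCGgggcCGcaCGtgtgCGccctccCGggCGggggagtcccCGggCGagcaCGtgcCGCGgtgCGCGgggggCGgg

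These stretches held 3 CG pairs for *DNMT3B*, 9 for *TET1*, 10 for *TET2* and 37 for *TET3*. The 250 bases before later listed starts held 4 and 11 for *TET1*, 34 for *TET2* and 27 for *TET3*. *DNMT3B* had no other listed start, and whether its window lies at the main start of the gene was not checked. The printed stretches therefore do not describe the whole promoter region of a gene. Over the full windows the 19 ranged from 3 to 46 CG pairs, and 14 of them were above the median of 14 for all 35116 windows in the table. The letters GATA with an A or T before them and an A or G after them, to which GATA factors bind, were found on either strand in 0 of the 19 windows and in 25.0% of all windows. The letters TTTCCCGC, TTTGGCGC, TTTCGCGC and TTTGCCGC, as read by E2F factors of the cell cycle, were found in 3 of the 19, 1 of *DNMT1* and 2 of *UHRF1*, and in 3.31% of all windows. CCAAT was found in 7 of the 19 and in 34.6% of all. These counts describe letters within the windows, and the windows of 1 gene can overlap.

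The levels fell into high and low ranges. *DNMT1*, *DNMT3A* and *DNMT3B* were between 59.81 and 794.77 TPM in every library, *UHRF1* and *TDG* between 24.76 and 51.93, and the 3 *TET* genes between 0.79 and 14.69. *DNMT3L* did not pass 0.68.

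**Figure D1:**
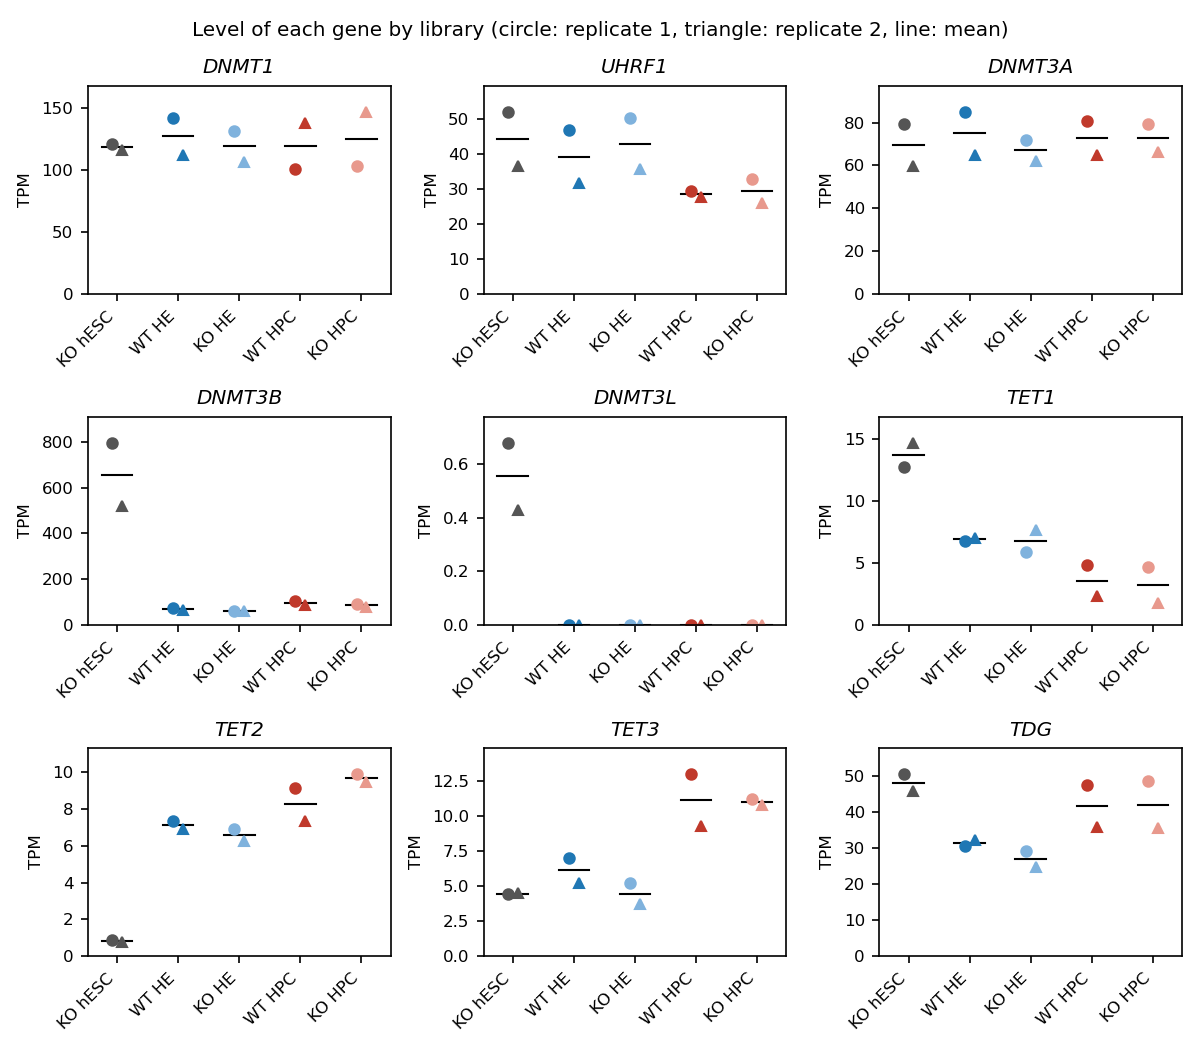
TPM of the 9 genes (vertical axes, linear, each starting at 0) in the 5 groups, with a circle for replicate 1, a triangle for replicate 2 and a line at their mean. *DNMT3B* stood at 518.40 and 794.77 in hESCs and at 60.64 to 103.93 elsewhere, *TET2* stood below 1 in hESCs only, and *DNMT1* and *DNMT3A* overlapped across all groups.

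*DNMT1* (chromosome 19 from 10244018 to 10341962, minus strand, GRCh37) was at 120.59 and 115.78 TPM in hESCs, 141.74 and 112.18 in WT HEs, 131.42 and 106.43 in GATA2-/- HEs, 100.54 and 137.46 in WT HPCs, and 103.07 and 146.67 in GATA2-/- HPCs. All groups overlapped. The log2 change from hESCs was 0.00 to HEs (95% confidence interval −0.52 to 0.52) and 0.06 to HPCs (−0.46 to 0.58), so the data leave room for changes within these bounds. The replicate difference ran in opposite directions in HEs and HPCs. The marked library was lower by 0.33 (WT) and 0.30 (GATA2-/-) on the log2 scale in HEs and higher by 0.45 and 0.50 in HPCs. *S1PR2*, whose annotated span overlaps *DNMT1* on the same strand, was at 0.25 to 6.18 TPM.

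*UHRF1* (chromosome 19 from 4903092 to 4962165, plus strand, GRCh37, matched by symbol) was at 51.93 and 36.56 in hESCs. It was at 46.70 and 31.76 in WT HEs and 50.24 and 35.57 in GATA2-/- HEs, and at 29.36 and 27.79 in WT HPCs and 32.85 and 25.93 in GATA2-/- HPCs. HPCs lay at the low end, but the highest HPC library (32.85) was above the lowest HE library (31.76). The log2 difference between GATA2-/- HPCs and hESCs was −0.56 (standard error 0.27, adjusted p = 0.157, limma with Benjamini-Hochberg adjustment), which did not pass the threshold of 0.05. The ratio of *DNMT1* to *UHRF1* was 2.32 and 3.17 in hESCs, 2.62 to 3.53 in HEs and 3.14 to 5.66 in HPCs, with the 2 highest values in the marked HPC libraries.

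Of the de novo enzymes tested, *DNMT3B* changed from hESCs and *DNMT3A* was not called. *DNMT3B* (chromosome 20 from 31350191 to 31397165, plus strand, GRCh37) was at 794.77 and 518.40 TPM in hESCs, 75.64 and 67.17 in WT HEs, 62.93 and 60.64 in GATA2-/- HEs, 103.93 and 86.00 in WT HPCs, and 92.23 and 80.73 in GATA2-/- HPCs. The hESC libraries were above the other 8, although they differed from each other by more than any other pair of replicates of this gene and carried unlike header numbers. Between hESCs and GATA2-/- HEs the gene fell by 3.36 on the log2(TPM + 1) scale (standard error 0.21, adjusted p = 1.24e-05, limma), which is 10.2-fold. Between hESCs and GATA2-/- HPCs it fell by 2.88 (standard error 0.21, adjusted p = 2.69e-05, limma), which is 7.37-fold. It did not reach 0 at any stage, and its level in HEs and HPCs stayed close to that of *DNMT3A*.

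*DNMT3A* (chromosome 2 from 25450724 to 25565459, minus strand, GRCh37) was at 79.38 and 59.81 in hESCs, 84.93 and 64.93 in WT HEs, 72.03 and 62.07 in GATA2-/- HEs, 80.85 and 65.05 in WT HPCs, and 79.31 and 66.30 in GATA2-/- HPCs. Its groups overlapped throughout, and in each of the 5 the second replicate was the lower, as it was for *DNMT3B*, *UHRF1* and *TET2*. The log2 change from hESCs was −0.04 to HEs (95% confidence interval −0.53 to 0.45) and 0.07 to HPCs (−0.42 to 0.56). The ratio of *DNMT3B* to *DNMT3A* was 10.01 and 8.67 in hESCs, 0.874 to 1.03 in HEs and 1.16 to 1.32 in HPCs, so the 4 HPC libraries were above the 4 HE libraries in both genotypes. *DNMT3L* (chromosome 21 from 45666222 to 45682099, minus strand, GRCh37) was at 0.68 and 0.43 in hESCs and listed at 0 in the other 8 libraries, and it was not tested. An antisense transcript within it (AP001059.5) was at 0.7 and 0.49 in hESCs, 0.96 and 0 in WT HEs, 0.85 and 0.61 in GATA2-/- HEs and 0 in HPCs. It was thus given a level in 3 libraries where *DNMT3L* was listed at 0. The library kit does not mark strand, and how reads shared by the pair were divided was not tested.

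As shares of the summed TPM of *DNMT1*, *DNMT3A* and *DNMT3B*, *DNMT3B* held 79.9% and 74.7% in hESCs, 23.6% to 27.5% in HEs and 27.5% to 36.4% in HPCs. *DNMT1* held 12.1% and 16.7% in hESCs, 45.9% to 49.3% in HEs and 35.2% to 49.9% in HPCs. Its HPC share was 35.2% and 37.5% in the unmarked libraries and 47.6% and 49.9% in the marked ones. A share moves with every gene of its sum.

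**Figure D2:**
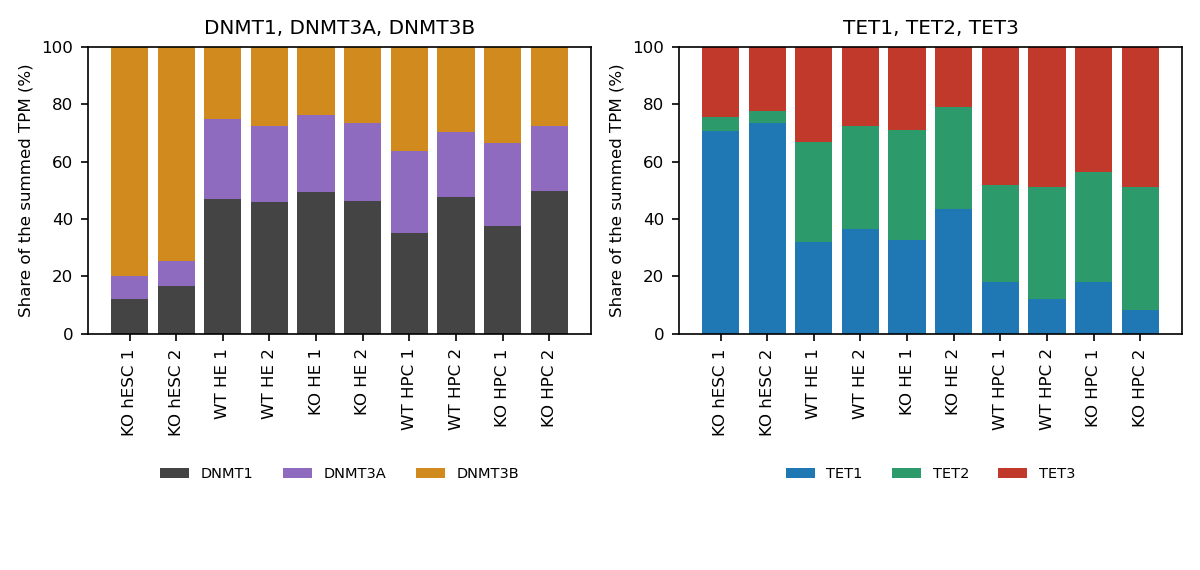
Share of the summed TPM (percent, from 0 to 100) of *DNMT1*, *DNMT3A* and *DNMT3B* (left) and of *TET1*, *TET2* and *TET3* (right) in each of the 10 libraries, 1 stacked bar per library. *DNMT3B* took 79.9% and 74.7% and *TET1* 70.7% and 73.6% of their sums in hESCs, and both shares were lower in all HE and HPC libraries.

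The TET genes differed in their order of levels from stage to stage. *TET1* (chromosome 10 from 70320094 to 70454244, plus strand, GRCh37) was at 12.72 and 14.69 TPM in hESCs, 6.82 and 6.99 in WT HEs, 5.88 and 7.68 in GATA2-/- HEs, 4.87 and 2.31 in WT HPCs, and 4.69 and 1.80 in GATA2-/- HPCs. The stages were ordered without overlap, hESCs above HEs above HPCs, though neighbouring stages did not differ past the threshold in the main fit. From hESCs to GATA2-/- HPCs *TET1* fell by 1.88 (standard error 0.42, adjusted p = 0.00933, limma), 3.68-fold on the TPM + 1 scale, whereas the difference from hESCs to GATA2-/- HEs was −0.92 (standard error 0.42, adjusted p = 0.135, limma). Its 2 HPC libraries were of unequal level. Without the second GATA2-/- HPC replicate the change was −1.37 (adjusted p = 0.055, limma), and the call was also lost without either hESC library (adjusted p up to 0.0739).

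*TET2* (chromosome 4 from 106067032 to 106200973, plus strand, GRCh37) was at 0.87 and 0.79 in hESCs, 7.36 and 6.92 in WT HEs, 6.90 and 6.28 in GATA2-/- HEs, 9.15 and 7.37 in WT HPCs, and 9.91 and 9.50 in GATA2-/- HPCs. Every HE and HPC library was above both hESC libraries. *TET2* rose by 2.05 from hESCs to GATA2-/- HEs (standard error 0.28, adjusted p = 0.0007, limma) and by 2.55 from hESCs to GATA2-/- HPCs (standard error 0.28, adjusted p = 0.000214, limma), 4.15-fold and 5.85-fold on the TPM + 1 scale, which understates the ratio of a gene below 1 TPM. *TET2-AS1*, antisense within the gene, was at 0 to 1.15 TPM in the 10 libraries. Without strand, reads from sequence it shares with *TET2* cannot be told apart, and how they were divided was not tested.

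*TET3* (chromosome 2 from 74212037 to 74335303, plus strand, GRCh37) was at 4.41 and 4.49 in hESCs, 7.03 and 5.25 in WT HEs, 5.21 and 3.71 in GATA2-/- HEs, and 13.02 and 9.27 in WT HPCs. In GATA2-/- HPCs its mean was 11.01 (SD 0.28, n = 2), with the second replicate at 10.81. The 4 HPC libraries were above all others, and GATA2-/- HEs overlapped hESCs. *TET3* rose by 1.14 from hESCs to GATA2-/- HPCs (standard error 0.30, adjusted p = 0.0198, limma), 2.20-fold, and its difference from hESCs to GATA2-/- HEs was −0.01 (95% confidence interval −0.69 to 0.67). The rise to HPCs lost its call without any 1 of the 4 libraries of that comparison (adjusted p 0.0641 to 0.0799), with a log2 change of 1.12 to 1.16.

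The sum of the 3 genes was far more even than its parts, 18.0 and 19.97 TPM in hESCs, 17.67 to 21.21 in HEs and 18.95 to 27.04 in HPCs. Of it, *TET1* made up 70.7% and 73.6% in hESCs, 32.2% to 43.5% in HEs and 8.14% to 18.2% in HPCs. *TET2* made up 4.83% and 3.96%, 34.7% to 38.4% and 33.8% to 43.0%, and *TET3* 24.5% and 22.5%, 21.0% to 33.1% and 43.4% to 48.9%. In hESCs *TET1* thus led, in HEs no gene led in all 4 libraries, and in HPCs *TET3* was the highest in each library. The ratio of *TET2* to *TET1* was 0.0684 and 0.0538 in hESCs, 0.818 to 1.17 in HEs and 1.88 to 5.28 in HPCs, without overlap between the stages.

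The glycosylase gene *TDG* (chromosome 12 from 104359600 to 104382652, plus strand, GRCh37) followed another course. It was at 50.46 and 45.73 TPM in hESCs, 30.53 and 32.27 in WT HEs, 29.18 and 24.76 in GATA2-/- HEs, 47.52 and 35.70 in WT HPCs, and 48.57 and 35.43 in GATA2-/- HPCs. HEs were below both other stages in all libraries, and HPCs overlapped hESCs. From hESCs to GATA2-/- HEs *TDG* fell by 0.81 (standard error 0.22, adjusted p = 0.0214, limma), 1.76-fold, and its difference from hESCs to GATA2-/- HPCs was −0.21 (95% confidence interval −0.70 to 0.29). The call was lost without any 1 of the 4 libraries (adjusted p 0.0504 to 0.114).

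Of the 8 tested genes, 3 passed the threshold between hESCs and GATA2-/- HEs, where 30.0% of all tested genes did. In that comparison 1 was higher (background 13.9%) and 2 were lower (16.1%). Between hESCs and GATA2-/- HPCs 4 passed, against 30.6% of all genes, with 2 higher (14.2%) and 2 lower (16.4%). Both comparisons share the 2 hESC libraries. In numbers of genes called, the 8 were thus not set apart from the transcriptome, in which the change from hESCs was wide, and the median log2 change was −0.04 over the 8 against −0.02 over all genes for HEs, and −0.07 against 0.00 for HPCs.

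**Figure D3:**
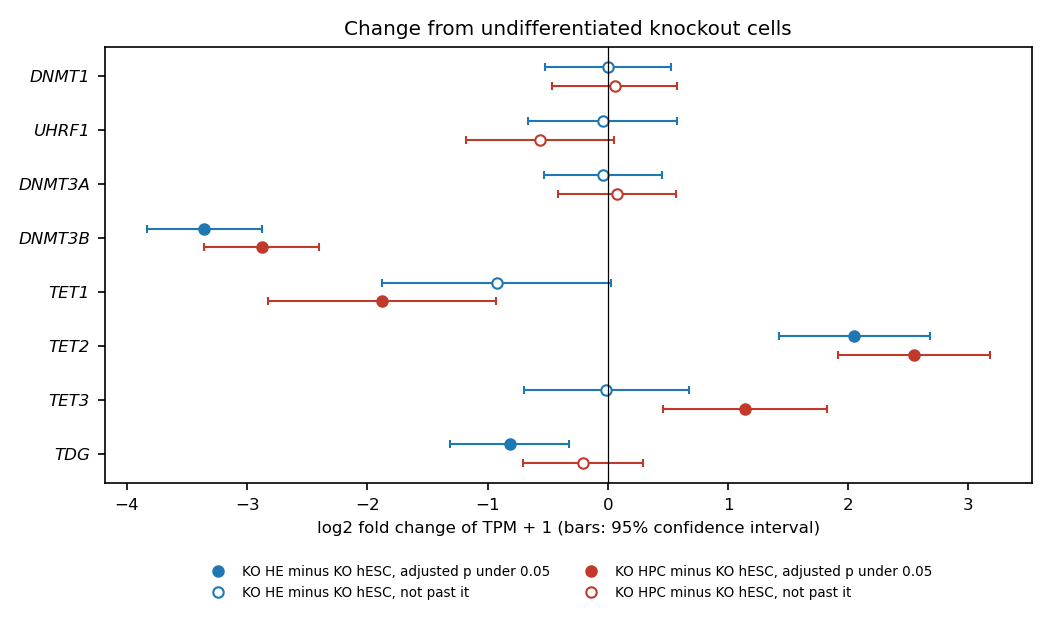
Log2 fold change of TPM + 1 (horizontal axis) from GATA2-/- hESCs to GATA2-/- HEs (blue) and to GATA2-/- HPCs (red) for the 8 tested genes, with 95% confidence intervals as bars and filled points for an adjusted p under 0.05. *DNMT3B* lay at −3.36 and −2.88 and *TET2* at 2.05 and 2.55, while the intervals of *DNMT1* and *DNMT3A* spanned 0 in both.

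The step from HEs to HPCs asked which of these genes differed between the sorted endothelial and blood cells. HEs were sorted on day 8 and HPCs on day 9, so stage, day and sort gate cannot be told apart. In WT cells 0 of the 8 passed the threshold (limma, background 9.91%), with 1 of them, *TET3*, at an unadjusted p under 0.05. In GATA2-/- cells 1 of the 8 passed (background 12.7%). This was *TET3*, which rose by 1.15 (standard error 0.30, adjusted p = 0.0381, limma), 2.22-fold. Its WT difference was 0.76 (standard error 0.30, adjusted p = 0.171, limma), and the difference between the genotypes was 0.39 (95% confidence interval −0.58 to 1.36). The call in GATA2-/- cells was lost without any 1 of its 4 libraries (adjusted p 0.0736 to 0.191).

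Averaged over both genotypes, a comparison added after the values had been seen, 1 of the 8 passed (background 20.4%), 1 higher (8.52%) and 0 lower (11.9%). *TET3* was 0.96 higher in HPCs (standard error 0.21, adjusted p = 0.0128, limma), 1.94-fold, and of the 8 fits with 1 library left out it missed the threshold in 1, without the second WT HE library (adjusted p = 0.0509). With 4 libraries against 4, the stages did not overlap for 5 of the 8 genes, where 23.0% of all tested genes did not. *DNMT3B*, *TDG*, *TET2* and *TET3* were higher in all HPC libraries, *TET2* barely so (lowest HPC 7.37, highest HE 7.36 TPM), and *TET1* was lower. Their log2 differences, *TET3* aside, missed the threshold. They were 0.44 for *DNMT3B* (adjusted p = 0.0715, limma), 0.49 for *TDG* (adjusted p = 0.0529, limma), 0.34 for *TET2* (adjusted p = 0.275, limma) and −0.90 for *TET1* (adjusted p = 0.0643, limma). *UHRF1* was at −0.47 (adjusted p = 0.126, limma), *DNMT1* at −0.02 and *DNMT3A* at 0.04.

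With the header mark as a block, added after the data were seen, *TDG* passed the threshold beside *TET3* (adjusted p = 0.0278 and 0.00764, limma), and the adjusted p was 0.0605 for *DNMT3B*, 0.0539 for *TET1* and 0.0615 for *UHRF1*. For the 5 genes whose stages did not overlap, the direction within libraries of like header mark was fixed by that, and only the sizes inform. *TET3* differed between HPCs and HEs by 0.80 (unmarked) and 0.72 (marked) in WT cells and by 0.98 and 1.33 in GATA2-/- cells. *TET1* differed by −0.41 and −1.27 in WT cells and by −0.27 and −1.63 in GATA2-/- cells, so that most of its difference lay in the marked libraries. *TDG* had the opposite split, 0.62 and 0.14 in WT and 0.72 and 0.50 in GATA2-/- cells. The marked HPC libraries also had the higher blood-marker sums, 6463.23 and 6366.7 against 3544.79 and 3115.22. The largest rise was in the embryonic globin gene *HBE1* (4448.35 and 4487.33 against 1495.82 and 1598.41), and the markers did not all move that way. *GATA1*, *ITGA2B* and *SPN* were also higher in both genotypes, but *RUNX1* was lower in both (197.6 and 228.83 against 326.72 and 360.74). *MYB*, *SPI1* and *PTPRC* were lower in the marked WT library and higher in the marked GATA2-/- library. The endothelial sums of the marked HPC libraries were lower, 547.64 and 676.96 against 762.81 and 796.09. In GATA2-/- HPCs *TIE1* (223.56 against 202.84), *ESAM* (163.72 against 159.5) and *CLDN5* (0.95 against 0.85) went the other way. The other endothelial markers were lower in the marked library of both genotypes. The part of these differences in the levels of *TET1* and *TDG* was not tested, and in bulk samples fewer cells of a type and less RNA per cell cannot be told apart.

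**Figure D4:**
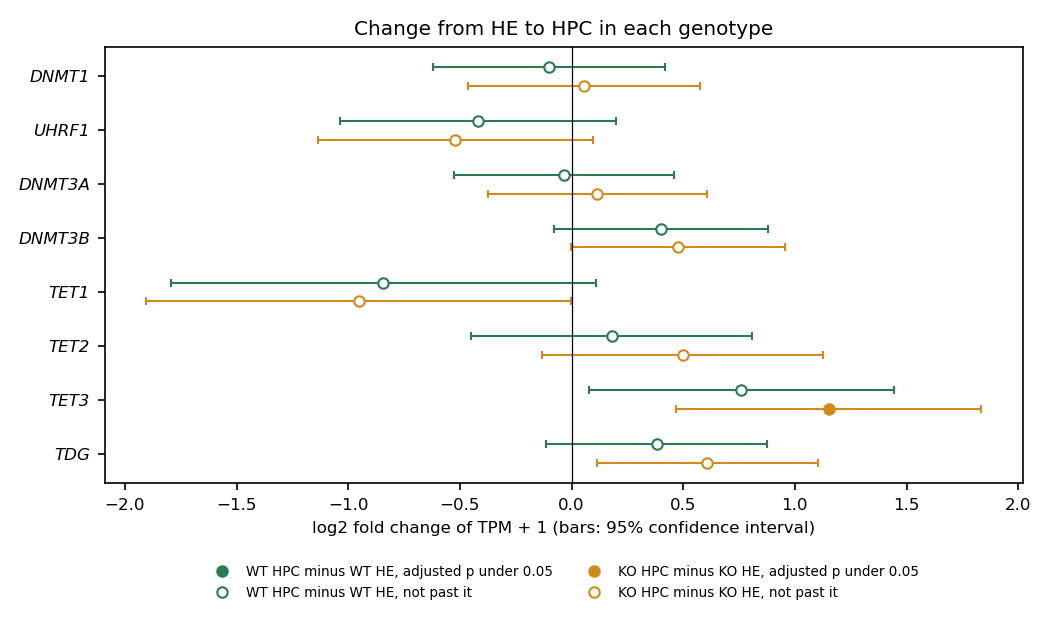
Log2 fold change of TPM + 1 (horizontal axis) from HEs to HPCs in WT (green) and GATA2-/- (orange) cells for the 8 tested genes, with 95% confidence intervals as bars and a filled point for an adjusted p under 0.05. Only *TET3* in GATA2-/- cells, at 1.15, has a filled point, and the 2 genotypes lie on the same side of 0 for every gene but *DNMT1* (−0.10 and 0.06) and *DNMT3A* (−0.03 and 0.12).

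The GATA2-/- line was compared with WT within HEs and within HPCs, which asks whether these genes depend on GATA2. In HEs 0 of the 8 genes passed the threshold (limma, background 0.0186%, 4 genes), and 0 had an unadjusted p under 0.05, as 1045 genes in all did. The log2 differences ran from −0.39 for *TET3* (95% confidence interval −1.07 to 0.29) to 0.13 for *UHRF1* (−0.49 to 0.75). The 2 GATA2-/- libraries were below the 2 WT libraries for 4 of the 8, *DNMT3B*, *TDG*, *TET2* and *TET3*, where 30.3% of all tested genes did not overlap in either direction. *DNMT3B* differed by −0.20 (95% confidence interval −0.68 to 0.28), *TDG* by −0.22 (−0.71 to 0.28) and *TET2* by −0.10 (−0.73 to 0.53). The intervals leave room for changes in both directions. The 8 blood markers also summed lower in GATA2-/- HEs, to 113.15 and 53.17 TPM against 251.72 and 191.25 in WT HEs. Their median log2 difference was −1.53, with 0 of the 8 past the threshold and 6 at an unadjusted p under 0.05 (limma). The endothelial sums were 3235.46 and 2929.59 against 2745.64 and 2784.08, and the mesenchymal sums 335.71 and 250.26 against 484.36 and 351.66. *DNMT3B*, *TDG*, *TET2* and *TET3* are also the 4 genes that were higher in all HPC libraries than in all HE libraries. Both comparisons use the same HE libraries, so low GATA2-/- HE values enter both and the match is not independent. The part of the marker levels in the differences of these 4 genes was not tested.

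In HPCs 0 of the 8 passed (background 0.0603%, 13 genes), and 0 had an unadjusted p under 0.05, as 1925 genes in all did. Here 1 of the 8, *TET2*, did not overlap, with GATA2-/- above WT by 0.22 (95% confidence interval −0.41 to 0.85), against 32.6% of all genes. *TET3* (0.00), *DNMT3A* (−0.00) and *TDG* (0.01) had nearly equal group means, with intervals from −0.68 to 0.68, −0.49 to 0.49 and −0.49 to 0.51. The test of whether the GATA2-/- difference itself changed between HEs and HPCs called 0 of the 8 and 0 of all genes (0.0%, limma), with 1281 of all genes and 0 of the 8 at an unadjusted p under 0.05. The values of that interaction ran from −0.11 for *TET1* to 0.39 for *TET3*. For *TET1* the GATA2-/- difference in HPCs was −0.14 and turned to 0.37 without the second GATA2-/- library, uncalled in both. Standard errors of the member differences between genotypes lay between 0.21 and 0.42 on the log2 scale.

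**Figure D5:**
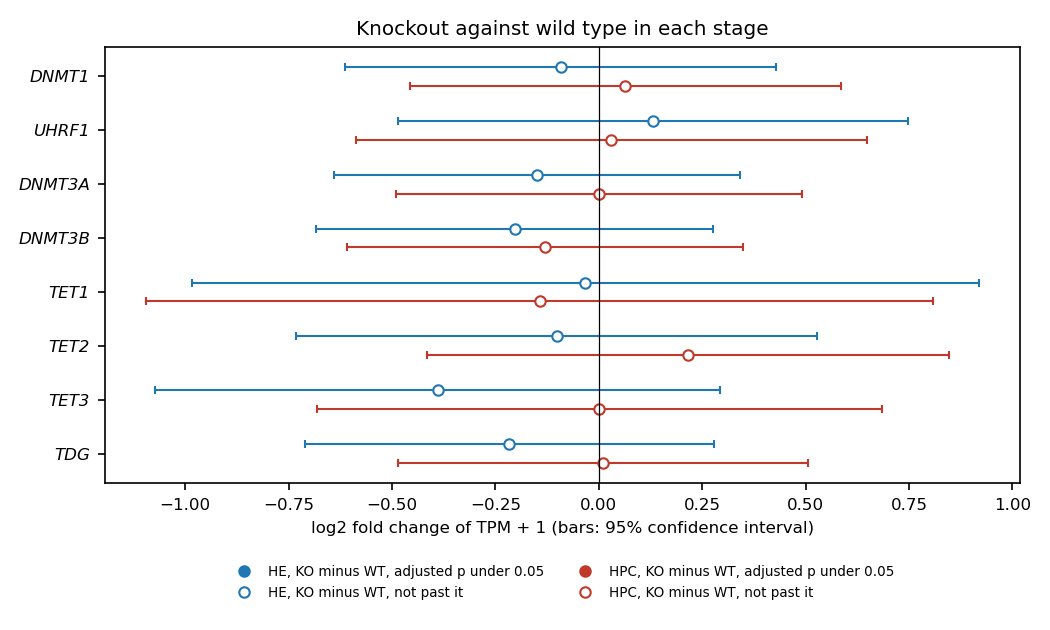
Log2 fold change of TPM + 1 (horizontal axis) between GATA2-/- and WT cells in HEs (blue) and HPCs (red) for the 8 tested genes, with 95% confidence intervals as bars. Points are open because no adjusted p was under 0.05, and all 16 intervals span 0.

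For *DNMT3B*, neighbouring genes on chromosome 20 were also listed, and those named here had starts at −1023.1 kb to 596.5 kb from its own. Between GATA2-/- and WT cells, *ASXL1*, a chromatin regulator whose start lies at −404.1 kb, was higher by 0.68 in HEs and 0.84 in HPCs. Its TPM was 98.5 and 94.16 against 60.93 and 58.41 in HEs and 93.74 and 81.0 against 53.38 and 43.76 in HPCs. Both groups were apart in both stages, yet neither difference passed the threshold (adjusted p = 0.575 and 0.211, limma). *TPX2*, a spindle gene, was at 0.60 and 0.58, *KIF3B*, a kinesin gene, at 0.36 and 0.69, and *NOL4L* at 0.29 and 0.25. Nearer to *DNMT3B* and beyond it the differences were −0.03 and −0.23 for *COMMD7*, −0.13 and 0.11 for *MAPRE1*, and 0.12 and −0.02 for *CDK5RAP1*. *EFCAB8* and *SUN5* were not tested. *DNMT3B*, at −0.20 and −0.13, did not share the positive sign of the 4 genes before *COMMD7*.

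Partner genes of the enzymes were counted from lists, to be read against the 16.1% of all tested genes that fell and 13.9% that rose in GATA2-/- HEs against hESCs, and the 16.4% and 14.2% in GATA2-/- HPCs. Of 14 listed cofactors, 13 were tested, and 8 fell and 0 rose in GATA2-/- HEs against hESCs. They included *HELLS*, a remodeller needed for methylation of repeats, by 2.05 (73.225 to 16.87 TPM, group means), *CDCA7L* by 1.95, *ZBTB24* by 1.36 and *PCNA*, the replication clamp, by 1.25. In GATA2-/- HPCs against hESCs 5 fell, *HELLS* by 2.15, *CDCA7L* by 1.13, *PCNA* by 0.91, *EHMT1* by 0.81 and *EHMT2* by 0.61, and 1 rose, *SETDB1*, a histone methyltransferase, by 0.90. The median over the 13 was −0.95 in HEs and −0.61 in HPCs, against −0.02 and 0.00 over all genes. A list of 15 S phase genes, several of which share the replication fork with DNMT1, had 8 that fell and 1 that rose (*TYMS*) in HEs and 5 and 1 in HPCs, with medians of −0.67 and −0.69. *DNMT1* and *UHRF1* were not called in either comparison.

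Among 9 readers of methylated CpG, 2 rose in HEs (13.9% of all genes did) and 3 in HPCs (14.2%) against hESCs. *ZBTB38* rose by 1.75 and *UHRF2* by 1.12 in HEs, 0 fell, and in HPCs *MBD1* joined them at 0.57, beside *ZBTB38* at 1.74 and *UHRF2* at 1.13. Of 14 partners of TDG in base excision repair, 2 fell (16.1% of all genes did) and 1 rose (13.9%) in HEs, shares near or below those of all genes. *PARP1* fell by 1.50 and *UNG*, the uracil glycosylase, by 1.36, and the stress gene *GADD45A* rose by 2.25 (8.99 to 46.71 TPM, group means). In HPCs *PARP1* fell by 1.44, *UNG* by 1.29 and *GADD45B* by 1.29, and *GADD45A* rose by 2.53.

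Genes that supply or regulate the reactions, 10 in the list, changed in both directions. TET enzymes use 2-oxoglutarate, which isocitrate dehydrogenases make, and methyltransferases use S-adenosylmethionine. *IDH1*, the cytosolic form, fell by 2.66 in HEs (400.765 to 62.79 TPM, group means) and by 2.57 in HPCs, and *IDH2*, the mitochondrial form, rose by 2.20 (74.25 to 336.265 TPM) and by 1.68. *AHCY*, which clears the product of methylation, fell by 1.20 and 0.79. *OGT*, which binds TET proteins, rose by 1.04 in HEs and 2.53 in HPCs. In HEs 4 of the 10 fell (16.1% of all genes did) and 3 rose (13.9%), and in HPCs 2 fell (16.4%) and 4 rose (14.2%).

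From HEs to HPCs, 3 of the 76 tested genes of the partner, germline and neighbour lists were called in WT cells and 5 in GATA2-/- cells, of which 4 are named. These shares are below the 9.91% and 12.7% of all tested genes, so the lists as a whole were not set apart. *OGT* rose by 1.17 in WT cells and 1.50 in GATA2-/- cells (adjusted p = 0.0471 and 0.0145, limma), *MAT2A*, which makes S-adenosylmethionine, by 0.77 in GATA2-/- cells, and *CDCA7L* by 0.82 in GATA2-/- cells. *GADD45G* fell by 2.47 in GATA2-/- cells. *TRDMT1*, the tRNA methyltransferase once named DNMT2 and the 1 tested gene of 3 in its list, fell by 1.56 in WT cells. S phase genes had 0 called (limma), with 1 of 15 in WT cells and 0 in GATA2-/- cells at an unadjusted p under 0.05, and the readers likewise had 0 called, with 1 of 9 and 0. Of 15 germline genes known to be silenced by promoter methylation, 7 were tested. Each germline gene named here reached 1 TPM only in the group where it was high, so the filter favoured that direction. *TEX14* fell by 2.36 in HEs and 2.16 in HPCs against hESCs (group means 5.99 to 0.31 and 0.55 TPM). *TDRD12* fell by 1.18 in HEs (1.375 to 0.04 TPM), and 0 rose against hESCs. *SYCP3* rose by 1.45 from WT HEs to WT HPCs (0 to 1.775 TPM). Between the genotypes, of the same 76 genes 0 passed the threshold in HEs and 0 in HPCs (limma), with 3 and 7 at an unadjusted p under 0.05.

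The genes whose levels ran most like each member were sought by Pearson's r of log2(TPM + 1) over the 10 libraries among 11923 genes whose mean TPM was 5 or more. The points share libraries and 5 groups, so the values only describe. For *DNMT3B* the closest were RP11-380P13.2 (r = 0.990), *SCNN1A* (0.989) and CTD-2501M5.1 (0.989), and for *TET2* they were *ZEB2* (0.997), *ST3GAL5* (0.995) and *MEIS1* (0.995). *TET3* ran closest to *ZFP91* (0.990), *MGAT3* (0.990) and *ABHD2* (0.984), and *TET1* to CD24P4 (0.990), *PELI1* (0.983) and *GNA12* (0.982). For *UHRF1*, *TPD52L2* (0.979) led, for *TDG*, *EXOC6B* (0.967), for *DNMT1*, *ALG5* (0.913), and for *DNMT3A*, *FIP1L1* (0.907). Over the 8 HE and HPC libraries alone, *MGAT3* (0.992) remained among the 3 closest to *TET3*, and *CHD8* (0.980) among those of *TDG*, whereas the 3 closest to *DNMT3B*, led by *ABCC5* (0.997), and to *TET2* were other genes. Among the members themselves, r was −0.93 between *DNMT3B* and *TET2*, −0.79 between *TET1* and *TET2*, 0.65 between *TET1* and *DNMT3B* and −0.04 between *DNMT1* and *DNMT3A*.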

How the data were processed

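RNA was taken with Trizol and made into TruSeq libraries, which do not mark strand. The authors sequenced them on a MiSeq system as single-end reads, trimmed the reads with Trimmomatic and mapped them to hg19 with Bowtie. The submitters' notes name Bowtie, RSEM and the builds hg19 and mm10, with no versions. The deposited values are TPM per gene with 2 decimals, computed by the authors. They keep no read depth, so precision rests on the spread between the 2 libraries per group, pooled over the 5 groups. Nothing in the sources used here says whether the replicates came from separate cultures, so p-values measure only the spread between these samples.

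From the TPM, log2(TPM + 1) was fitted with limma 3.58.1 in R 4.3.3 (eBayes with trend, 5 groups sharing 1 variance) over the 21543 genes that reached 1 TPM in 2 or more libraries. Changes are on the log2(TPM + 1) scale, which understates those of low genes, with Benjamini-Hochberg adjustment over all tested genes and a threshold of 0.05. The procedure was run on simulated data with large added changes, which does not show how well smaller ones are found. The authors' own differential test, Cuffdiff, was not repeated. The members, partner lists and marker lists were chosen with earlier results of these data known. All members and the neighbours of *DNMT3B* were named, except for a gene that is not reported here, of each partner list up to 4 genes with the largest called change per comparison, and for likeness 3 genes per member. *EHMT1* and *EHMT2*, outside that rule, were named after their values were seen. Positions come from GENCODE v44 lifted to GRCh37, by gene ID except *UHRF1*, which was found by symbol under another ID. Alternatives were a pseudocount of 0.1, no filter, quantile normalization, eBayes with no trend, a fit to only the compared libraries, the replicate block and each library left out. A block by the header mark and the comparison averaged over genotypes were added after the data were seen. Protein sequences were not used here. Summaries were made in Python 3.11.15.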

Additional observations from a re-analysis of the deposited data

How the results depend on the processing

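The calls for *DNMT3B* and *TET2* against hESCs held under every alternative run, and with 1 library left out *DNMT3B* ranged from −3.66 to −3.05 for HEs and from −3.19 to −2.57 for HPCs. Of 768 values of single members under the alternatives, 20 lost their call and 14 gained one, and no called value changed sign. Values that were not called changed sign in 73 cases, each with a main value of at most 0.21 in size and an adjusted p of at least 0.628 under the alternative, and in 6 of these by more than a standard error (*DNMT1*, *TDG* and *TET1* without 1 GATA2-/- HPC library). The number of members called between hESCs and GATA2-/- HPCs, 4, was 2 with only the libraries of the comparison and 2 to 3 when 1 library was left out. From GATA2-/- HEs to HPCs the 1 call became 0 without the filter, 0 with only the libraries of the comparison, 2 with quantile normalization (*TDG* joined *TET3*) and 0 with any 1 library left out. Averaged over genotypes, the 1 call became 2 with only those libraries, 4 with quantile normalization, 2 with the block by header mark and 0 to 2 with 1 library left out. Of all 21543 tested genes, quantile normalization called 3185 from GATA2-/- HEs to HPCs. Averaged over genotypes, all genes called were 4395 in the main fit, 3950 with only those libraries, 4935 with quantile normalization and 4792 with the block by header mark. The cause of these changes was not tested. The 0 members called between genotypes stayed 0 under all alternatives. For all genes, the 6586 calls between hESCs and GATA2-/- HPCs became 4386 with only those libraries, and the 2134 and 2745 between HEs and HPCs became 0. The 4 calls between genotypes in HEs became 13 without the filter, 12 without trend, 2 with the block, 0 with only the compared libraries and 0 without any 1 library. The 13 in HPCs became 6 with a pseudocount of 0.1, 20 without trend, 3 with the block, 0 with only the compared libraries, 9 without the first GATA2-/- HPC library and 0 without any other. TPM gives no depth, which limits what can be said of *DNMT3L* and of *TET2* in hESCs.

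Replicate numbers were not shown to pair the samples. Replicate differences correlated across genes with r = 0.12 between WT and GATA2-/- HEs and 0.06 between the HPCs, and with −0.01 to 0.03 between the other pairs of groups. With the replicate block, members called were 4 (*DNMT3B*, *TDG*, *TET3* and *UHRF1*) in the average over genotypes, 3 in hESCs against GATA2-/- HEs, 5 in hESCs against GATA2-/- HPCs, 1 from GATA2-/- HEs to HPCs and 0 in each of the other comparisons. Of all 21543 tested genes the same fit called 4688, 6803, 6924 and 3002 in the comparisons named, in that order.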
